A study of Saccharomyces cerevisiae with 12 samples.

Results

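Cells of the budding yeast Saccharomyces cerevisiae held at 39 °C for 60, 90 or 120 min were compared with cells of the same strain given 1 µM rapamycin for the same times. These were 6 of the 12 polyA RNA-seq libraries of the study, 3 in each course, taken by the stated treatment and time and paired by time. The strain is labelled Sis1-AA and grew in rich YPD medium. In the anchor-away method, added rapamycin couples a target protein to an anchor that leaves the nucleus. The target here is Sis1, a J-domain protein that delivers clients to the Hsp70 chaperones. The heat course started at 30 °C, and the labels give no temperature for the rapamycin course. The untreated, 15 min and 30 min libraries of both courses did not enter the comparison. All 6 late libraries came from 1 strain and each was the only library of its time and course. Neighbouring times were therefore the only repeats, and a difference between the treatments cannot be told apart from a difference between the cultures of the courses. Of 5045 listed genes, 4937 averaged 10 or more across the 12 libraries and were tested.

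Hsf1 is the transcription factor that drives genes of cytosolic and nuclear chaperones. Hsp70 binds Hsf1 and holds it back, and Hsf1 becomes active when Hsp70 is drawn to other clients. The late samples let prolonged rapamycin, meant to draw Sis1 out of the nucleus, be set beside staying at a raised temperature. Heat also acts through a second pair of factors, Msn2 and Msn4, which respond to many stresses when protein kinase A activity falls and which bind the stress response element, AGGGG. Growth genes, those of ribosomal proteins and of ribosome assembly, are repressed in the same stresses.

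The late libraries held 3157887 to 4313170 reads in listed genes, and 3 reads equalled 2.44 to 3.08 in the table's normalized unit. The normalized values summed to 3048499 to 3328239 in late heat and to 3724972 to 3902151 in late rapamycin, and the 10 most abundant genes took 9.35% to 10.49% and 7.51% to 7.74% of reads. FPR1, which encodes the rapamycin-binding protein usually removed in anchor-away strains, had 0 to 4 reads in each of the 12 libraries. The part of rapamycin's own action on TOR kinase in the differences below was not tested, and Sis1 protein was not measured. Markers of α cells were present (MF(ALPHA)1 at 256 to 7452 over the 12 libraries), and the pheromone genes of a cells, MFA1 and MFA2, had 2 to 14 reads. The other a-cell markers read were not silent, with 73 to 340 reads for STE2 and 33 to 140 for BAR1.

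Promoter windows of genes on which the comparison turns are shown first, from the RefSeq R64 assembly, 5′ to 3′ on the coding strand of the gene. HSP26 and HSP12, small heat shock proteins, stood among the genes highest in late heat. Capitals in these windows mark AGGGG or its reverse complement CCCCT.
HSP26 (chrII:381531-381728, plus strand): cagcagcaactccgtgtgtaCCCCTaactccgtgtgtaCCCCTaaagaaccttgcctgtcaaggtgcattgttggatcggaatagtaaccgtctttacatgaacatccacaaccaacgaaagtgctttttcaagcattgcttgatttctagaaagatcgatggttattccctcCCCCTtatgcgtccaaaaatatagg
HSP12 (chrVI:106801-107090, plus strand): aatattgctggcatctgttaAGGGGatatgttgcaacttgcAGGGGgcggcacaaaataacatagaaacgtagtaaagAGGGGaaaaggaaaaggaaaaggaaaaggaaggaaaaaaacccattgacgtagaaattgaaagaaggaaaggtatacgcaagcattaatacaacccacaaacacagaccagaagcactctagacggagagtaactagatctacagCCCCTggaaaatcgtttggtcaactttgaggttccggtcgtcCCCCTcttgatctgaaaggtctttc
BTN2 encodes a protein that gathers misfolded proteins into deposits, and both it and SIS1 were higher in late rapamycin. Capitals mark the heat shock element searched, which is TTC, GAA and TTC with 2 free bases between each, or its reverse complement, in runs where matches overlap.
BTN2 (chrVII:772090-772147, plus strand): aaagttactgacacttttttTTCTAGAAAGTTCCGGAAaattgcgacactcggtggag
SIS1 (chrXIV:619867-619929, minus strand): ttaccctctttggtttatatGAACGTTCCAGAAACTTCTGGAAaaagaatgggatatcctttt
NOP7, a ribosome assembly factor, represents the growth genes, with capitals on GATGAG, the PAC element. SDH2, a succinate dehydrogenase subunit, represents the respiratory genes, with capitals on CCAATNA, the box bound by the Hap complex.
NOP7 (chrVII:695268-695323, plus strand): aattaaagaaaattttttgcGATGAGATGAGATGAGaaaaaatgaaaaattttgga
SDH2 (chrXII:54059-54105, minus strand): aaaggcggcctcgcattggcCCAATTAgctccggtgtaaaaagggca

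Most of the transcriptome differed between adapted heat and prolonged rapamycin. A gene was called when the adjusted p of its mean difference over the 3 times was under 0.05 (limma with time as a block, Benjamini-Hochberg over 4937 genes). Of 4937 genes 3495 were called (70.8%), with 1625 higher in heat (32.9%) and 1870 higher in rapamycin (37.9%). At a difference of at least 1 on the log2 scale, 579 genes were higher in heat (11.7%) and 563 in rapamycin (11.4%). The largest differences lay on the heat side: 63 called genes were higher in heat by at least 3 and 2 were higher in rapamycin by as much. The 3 heat values lay outside the range of the 3 rapamycin values for 3646 genes (73.9%), above it for 1690 (34.2%) and below it for 1956 (39.6%).

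Libraries of a course resembled each other more than those of the other course. Between late libraries of the same course 8 to 66 genes differed 2-fold, whereas 1281, 1144 and 1086 differed 2-fold between the courses at 60, 90 and 120 min. The SD over genes of the log2 difference was 0.21 to 0.32 within a course and 1.04, 0.97 and 0.97 between them. The median difference of all genes was −0.05. Of the called genes 46.5% were higher in heat as deposited and 63.4% when the libraries were set to equal totals, which moved all differences up by a median of 0.25. The residual behind these calls is the variation of a difference over 3 times, not a spread between cultures.

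**Figure D1:**
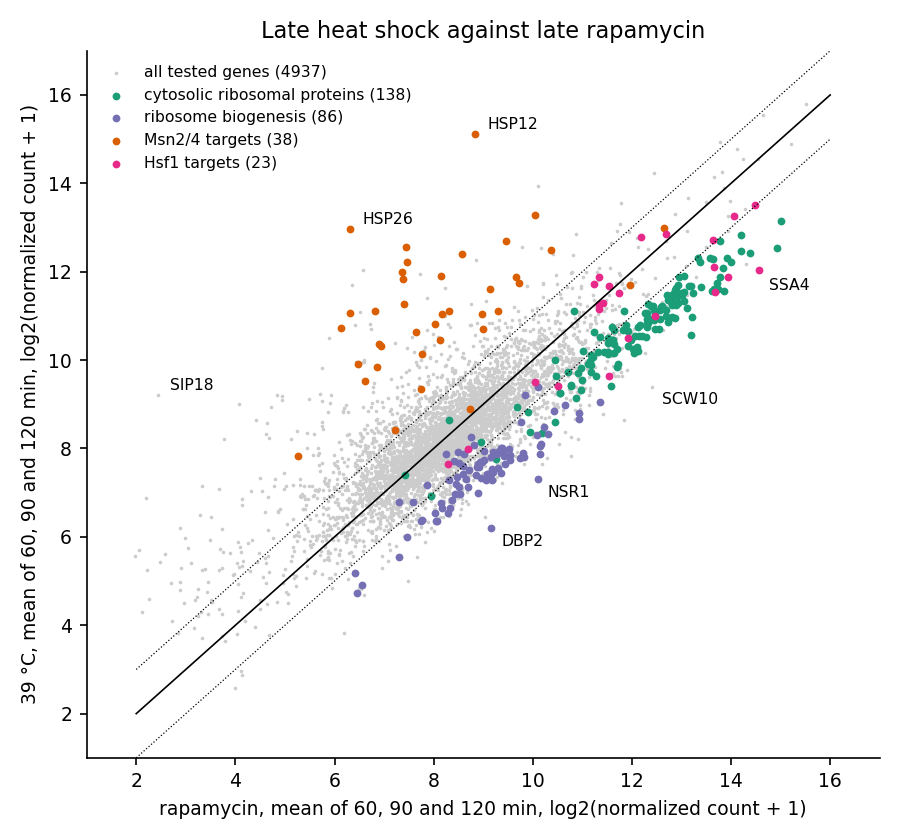
Mean log2(normalized count + 1) of each of 4937 genes over 60, 90 and 120 min, in rapamycin (x axis) and at 39 °C (y axis), with 4 gene lists coloured; the solid line marks equality and the dotted lines a difference of 1. Msn2/4 targets lie above the upper dotted line, apart from 3 of 38, and ribosomal protein and ribosome biogenesis genes lie mostly near or below the lower one.

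Hsf1 targets were, as a list, higher in prolonged rapamycin than in adapted heat. Of 23 targets 14 were called higher in rapamycin, 3 higher in heat and 6 neither way, against 37.9% and 32.9% of all genes in these directions, with a median of −0.70 against −0.05 over all genes (−0.45 under equal totals or quantile normalization). They took 4.15% to 4.55% of reads in late rapamycin and 2.49% to 2.74% in late heat. The list split by role. Of the 19 targets whose products work outside mitochondria, 13 were called higher in rapamycin and 0 higher in heat (median −0.91), while mitochondrial chaperones mostly went the other way.

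SSA4 (YER103W), the stress-induced cytosolic Hsp70, stood at 4303, 4415 and 3863 in heat and at 27861, 23062 and 21908 in rapamycin at 60, 90 and 120 min. Every rapamycin value was above every heat value, and the mean difference was −2.53 ± 0.12 (SE, 5.77-fold, adjusted p 1.17e-07). SSA2, a constitutive Hsp70, was at 3116, 3100 and 2814 in heat and 13917, 13429 and 11808 in rapamycin (−2.11 ± 0.10, adjusted p 1.14e-07). Its untreated values were 6269 in the heat course and 5014 in the rapamycin course, so late heat lay below both and late rapamycin above both. SSA1, 96.4% identical to SSA2 in coding sequence, was at 6215, 7291 and 6660 against 12760, 13077 and 12094 (−0.91 ± 0.12, adjusted p 6.15e-05). Reads of the pair can be shared in counting, and under quantile normalization SSA1 was at −0.06 and not called, while SSA2 was at −1.41 and called. SSA3, a further cytosolic Hsp70 gene that was placed on the Msn2/4 list, went the other way. It stood at 1980, 1612 and 1451 in heat and 536, 490 and 510 in rapamycin (1.7 ± 0.09, adjusted p 2.11e-07).

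The Hsp70 partners followed the order of SSA1, SSA2 and SSA4. SSE1, a nucleotide exchange factor of Hsp70, was at 3651, 4857 and 4748 in heat and 12768, 12771 and 13292 in rapamycin (−1.56 ± 0.12, adjusted p 1.87e-06). FES1, another exchange factor, differed by −1.10 ± 0.11 (adjusted p 8.12e-06). SIS1 (YNL007C) itself stood at 1434, 1471 and 1456 in heat and 4197, 4038 and 3461 in rapamycin. The mRNA of the anchor-away target was thus 2.67-fold higher in rapamycin (−1.42 ± 0.09, adjusted p 6.5e-07), with no overlap. Late values of both courses were above the untreated 670 and 443 of SIS1. YDJ1, the main cytosolic J-domain protein, was at 2024, 2033 and 2030 in heat, below its untreated 2711 and 2802, and at 6376, 5534 and 5140 in rapamycin (−1.48 ± 0.10, adjusted p 6.99e-07). APJ1, a J-domain protein of lower abundance, differed by −0.62 ± 0.11 (adjusted p 0.000452). Quantile normalization brought SSE1 to −0.76 and YDJ1 to −0.91, and equal totals brought APJ1 to −0.38, all still called.

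Of the factors that sort, hold or dissolve misfolded protein, BTN2, CUR1 and HSP104 were higher in rapamycin. The small heat shock protein HSP42 was not called (−0.06), and HSP26, on the Msn2/4 list, was higher in heat (6.65). BTN2 (YGR142W) was at 797, 785 and 816 in heat and 3573, 2894 and 2550 in rapamycin (−1.90 ± 0.10, 3.72-fold, adjusted p 2.4e-07). Its paralogue CUR1 differed by −0.70 ± 0.10 (adjusted p 0.000113). HSP104, the disaggregase, stood at 9894, 9854 and 9854 in heat and 18902, 16904 and 15707 in rapamycin (−0.79 ± 0.13, adjusted p 0.000351). That difference was −0.22 and not called under quantile normalization, and was not called in a fit of all 12 libraries. MBF1, a coactivator on the list, was at 3177, 3758 and 4590 in heat, near its untreated 3155 and 3453, and at 16471, 15847 and 14626 in rapamycin (−2.04 ± 0.14, 4.11-fold, adjusted p 9.47e-07). Still called, MBF1 was at −1.32 under quantile normalization and CUR1 at −0.45 under equal totals.

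Among the Hsf1 targets HSP82, HSP42 and 4 cochaperones of Hsp90 were not called in either direction, whereas HSC82 was higher in rapamycin. Of all genes 70.8% were called in 1 direction or the other. HSP82, the inducible Hsp90, stood at 8125, 7808 and 6535 in heat and 7178, 6336 and 6203 in rapamycin. Its ranges overlapped, and the difference of 0.19 had a 95% interval of −0.06 to 0.43 (adjusted p 0.151). HSC82, the constitutive Hsp90 and 91.7% identical in coding sequence, was at 11867, 12531 and 10599 in heat and 24274, 22444 and 22168 in rapamycin (−0.98 ± 0.14, adjusted p 0.000131). HSP82 was called higher in heat under equal totals (0.43), TMM scaling and edgeR (0.25 each) and quantile normalization (0.99). None of the 4 Hsp90 cochaperones on the target list was called, by limma, edgeR or DESeq2: AHA1 (−0.12), HCH1 (−0.17), STI1 (−0.22) and CPR6 (0.13) all had 95% intervals within 1 of 0. CPR6 was called higher in heat under equal totals (0.38), under quantile normalization (0.69) and without the 60 min pair (0.34), and STI1 higher in rapamycin without the 120 min pair (−0.35). HSP42, a small heat shock protein, was at 2550, 2494 and 2359 in heat and 2661, 2573 and 2478 in rapamycin, with a difference of −0.06 (95% interval −0.25 to 0.13). It stood at 58.5 and 86.2 in the untreated libraries, so all 6 late values were far above both. The sign of these small differences depended on scaling for HSP42, AHA1, HCH1 and STI1, which were above 0 under equal totals (0.19, 0.13, 0.08 and 0.02).

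Of the 4 mitochondrial matrix chaperones on the target list, 3 were called higher in heat and 1 in rapamycin, against 32.9% and 37.9% of all genes. HSP60, the chaperonin, was at 6593, 7848 and 6832 in heat and 4906, 4580 and 4473 in rapamycin (0.60 ± 0.11, adjusted p 0.000677). Its partner HSP10 differed by 0.54 ± 0.10 and the disaggregase HSP78 by 0.51 ± 0.09 (adjusted p 0.000939 and 0.000493). MDJ1, the matrix J-domain protein, was higher in rapamycin (−0.54 ± 0.08, adjusted p 0.000165). In a fit of all 12 libraries, whose residual also holds the early response, none of these 4 differences was called, nor were those of SSA1, FES1 and APJ1. Quantile normalization raised HSP60 to 1.35, HSP10 to 1.14 and HSP78 to 1.06.

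**Figure D2:**
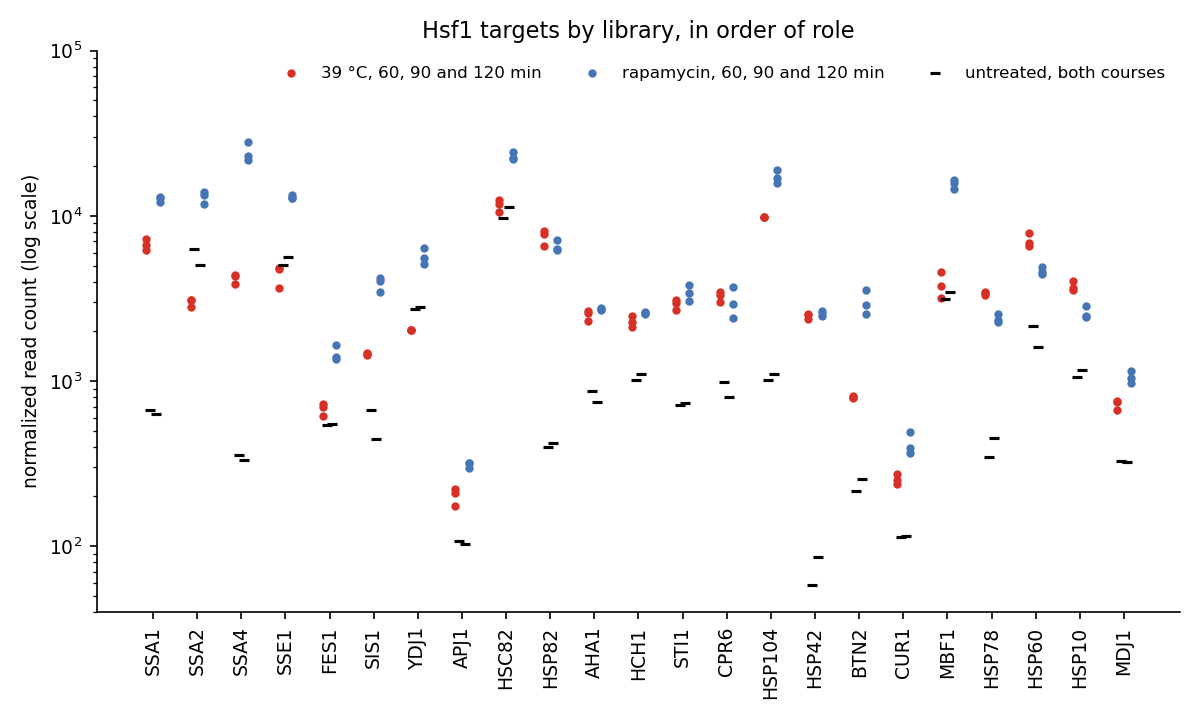
Normalized read count (log scale) of the 23 Hsf1 targets in each late library at 39 °C (red) and in rapamycin (blue), with both untreated libraries as black dashes, ordered by role from Hsp70 to mitochondrial chaperones. The blue points of SSA4 lie between 21908 and 27861 and the red ones between 3863 and 4415, whereas those of HSP42 lie within 2359 to 2661.

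Msn2/4 targets showed the opposite and larger difference. Of 38 targets 35 were called higher in heat, all by at least 1, against 32.9% of all genes called in that direction, and 1 was called lower. Their median difference was 2.94, and they took 4.50% to 4.70% of reads in late heat and 0.53% to 0.67% in late rapamycin. HSP12 (YFL014W), a membrane-protecting small protein, stood at 40184, 33972 and 32908 in heat and 498, 423 and 445 in rapamycin (6.29 ± 0.09, 78.1-fold, adjusted p 9.79e-11). HSP26, a small heat shock protein that holds misfolded proteins, was at 6722, 7928 and 9689 against 61.0, 78.6 and 103 (6.65 ± 0.08, adjusted p 3.71e-11). The rapamycin values of HSP26 were close to its untreated 72.7 and 55.9. Those of HSP12 were above its untreated 187 and 213, and the whole list took only 0.223% and 0.237% of reads in the untreated libraries. CTT1, the cytosolic catalase, was at 2464, 2506 and 2492 against 175, 161 and 174 (3.87 ± 0.08, adjusted p 6.43e-10).

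DDR2, a stress gene of the same list, differed by 5.13 ± 0.09 (adjusted p 2.77e-10). UBI4, the polyubiquitin gene, was the target called higher in rapamycin, by a small margin (−0.25 ± 0.09, adjusted p 0.0295) that was lost under 7 alternatives and stood at 0.37 under quantile normalization. GAC1 (0.17) and HOR7 (0.34) were not called. SIP18, which is made on drying and salt stress, had the largest difference that the naming rule allowed, with 502, 450 and 1341 reads in heat and 3, 5 and 7 in rapamycin. Pooled over the late libraries, its normalized level was 146 times as high in heat, with a 95% counting interval of 88.3 to 261.

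Genes of stored carbohydrate were higher in heat as well. Of 20 trehalose and glycogen genes, 18 were called higher in heat and 1 lower (median 1.77), against 32.9% and 37.9% of all genes. The Msn2/4 list also held 11 of these 20. GPH1, glycogen phosphorylase, was at 3228, 2041 and 1510 in heat and 82.0, 81.5 and 71.7 in rapamycin (4.76 ± 0.15, adjusted p 8.13e-09). TSL1, a subunit of the trehalose synthase complex, differed by 3.26 ± 0.13 and TPS2, its phosphatase, by 2.01 ± 0.08 (adjusted p 3.64e-08 and 3.86e-08). Autophagy genes went the same way, with 20 of 22 called higher in heat and 2 lower (median 1.01). ATG8, whose product coats the autophagosome, was at 406, 393 and 416 against 133, 119 and 95.9 (1.81 ± 0.12, adjusted p 6.84e-07). ATG5, part of the machinery that attaches Atg8 to lipid, was at 245, 302 and 354 in heat and 754, 813 and 1018 in rapamycin, the reverse order (−1.52 ± 0.08, adjusted p 2.44e-07).

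Oxidative defence genes were mostly higher in heat. Of 28 genes 18 were called higher in heat and 6 higher in rapamycin (median 0.97), against 32.9% and 37.9% of all genes. GPX1, a glutathione peroxidase, was at 905, 988 and 1104 against 99.2, 84.4 and 100 (3.39 ± 0.10, adjusted p 6.59e-09). TRX1, a thioredoxin, stood at 478, 538 and 620 in heat, below its untreated 1329 and 1404, and at 1127, 1180 and 1240 in rapamycin (−1.12 ± 0.08, adjusted p 1.49e-06). SRX1, the sulfiredoxin that repairs peroxiredoxins, was named among the 10 largest differences, with 148, 117 and 127 reads in heat and 7, 6 and 1 in rapamycin. The pooled ratio of its normalized levels was 26.7 (95% counting interval 15.7 to 49.3).

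**Figure D3:**
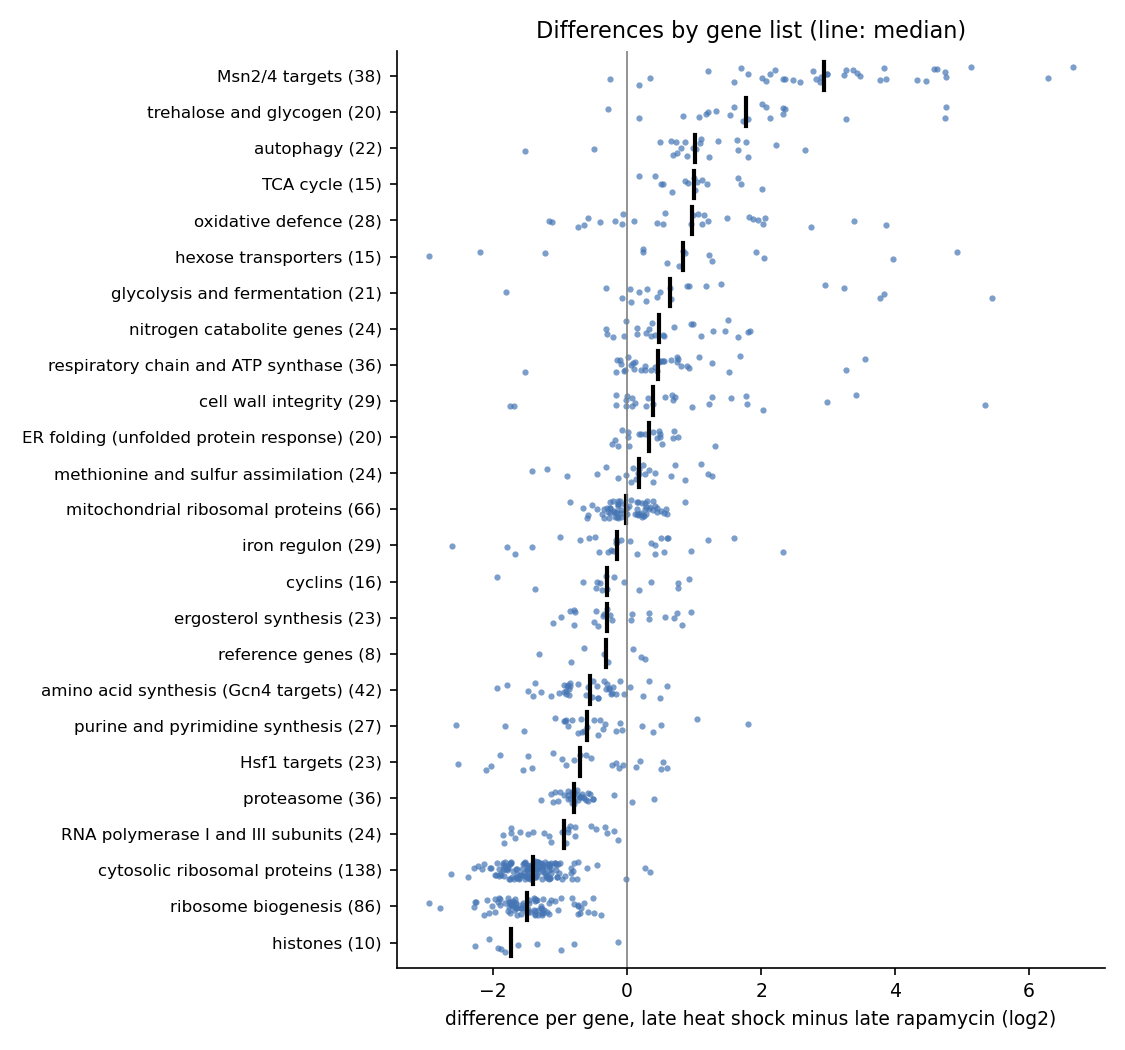
Difference of each gene (late heat minus late rapamycin, log2) by gene list, with the number tested in parentheses and a black line at the list's median; points are spread vertically for sight. Medians run from 2.94 for Msn2/4 targets to −1.73 for histones. Every member lies below 0 in ribosome biogenesis, in RNA polymerase I and III subunits and in histones.

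In carbon metabolism, isozymes of the same step differed in their response. The pairs below were picked after their values were seen, so they are described and support nothing further. TDH1, a glyceraldehyde-3-phosphate dehydrogenase, was at 4847, 3642 and 4164 in heat and 91.5, 97.0 and 95.9 in rapamycin (5.45 ± 0.10). Its abundant relative TDH3 was at 63491, 59688 and 49082 against 46770, 49496 and 44700, and was not called (0.28, adjusted p 0.245). The enolases repeated this, with 3.83 for ENO1 and −0.32, not called, for ENO2, although at 94.8% identity their reads may be shared. TDH1 and TDH3 may likewise share reads with TDH2, at 90.2% and 95.8% identity.

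Hexokinase showed opposite directions in its 2 forms. HXK1 was at 3755, 4220 and 3558 in heat and 246, 238 and 377 in rapamycin (3.77 ± 0.15), while HXK2, the form used in high glucose, was at 1817, 2196 and 1923 against 5789, 6837 and 8334 (−1.81 ± 0.11). In further pairs the form with the lower untreated values was higher in heat. These forms were PGM2 (phosphoglucomutase, 4.74), TKL2 (transketolase, 4.32), NQM1 (transaldolase, 4.10), GND2 (6-phosphogluconate dehydrogenase, 4.55) and SOL4 (6-phosphogluconolactonase, 3.37). Their counterparts PGM1, TKL1, TAL1, GND1 and SOL3 lay between −0.46 and 0.50. Of these, PGM1, GND1 and SOL3 were called higher in rapamycin and TAL1 higher in heat, while TKL1 was not called. Among hexose transporters, 9 of 15 tested were called higher in heat and 3 higher in rapamycin, against 32.9% and 37.9% of all genes. Their median was 0.83, and 0.41 over those with a mean of at least 50. HXT5 differed by 3.97 ± 0.08 (adjusted p 6.43e-10), and HXT7 by 4.93 ± 0.16, but HXT7 is 99.8% identical to HXT6 and its count is uncertain. The low-affinity transporters HXT1 (−2.20 ± 0.28, adjusted p 6.61e-05) and HXT3 (−1.23 ± 0.25, adjusted p 0.0016) were higher in rapamycin, as was HXT2 (−2.96 ± 0.11, adjusted p 2.48e-08).

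**Figure D4:**
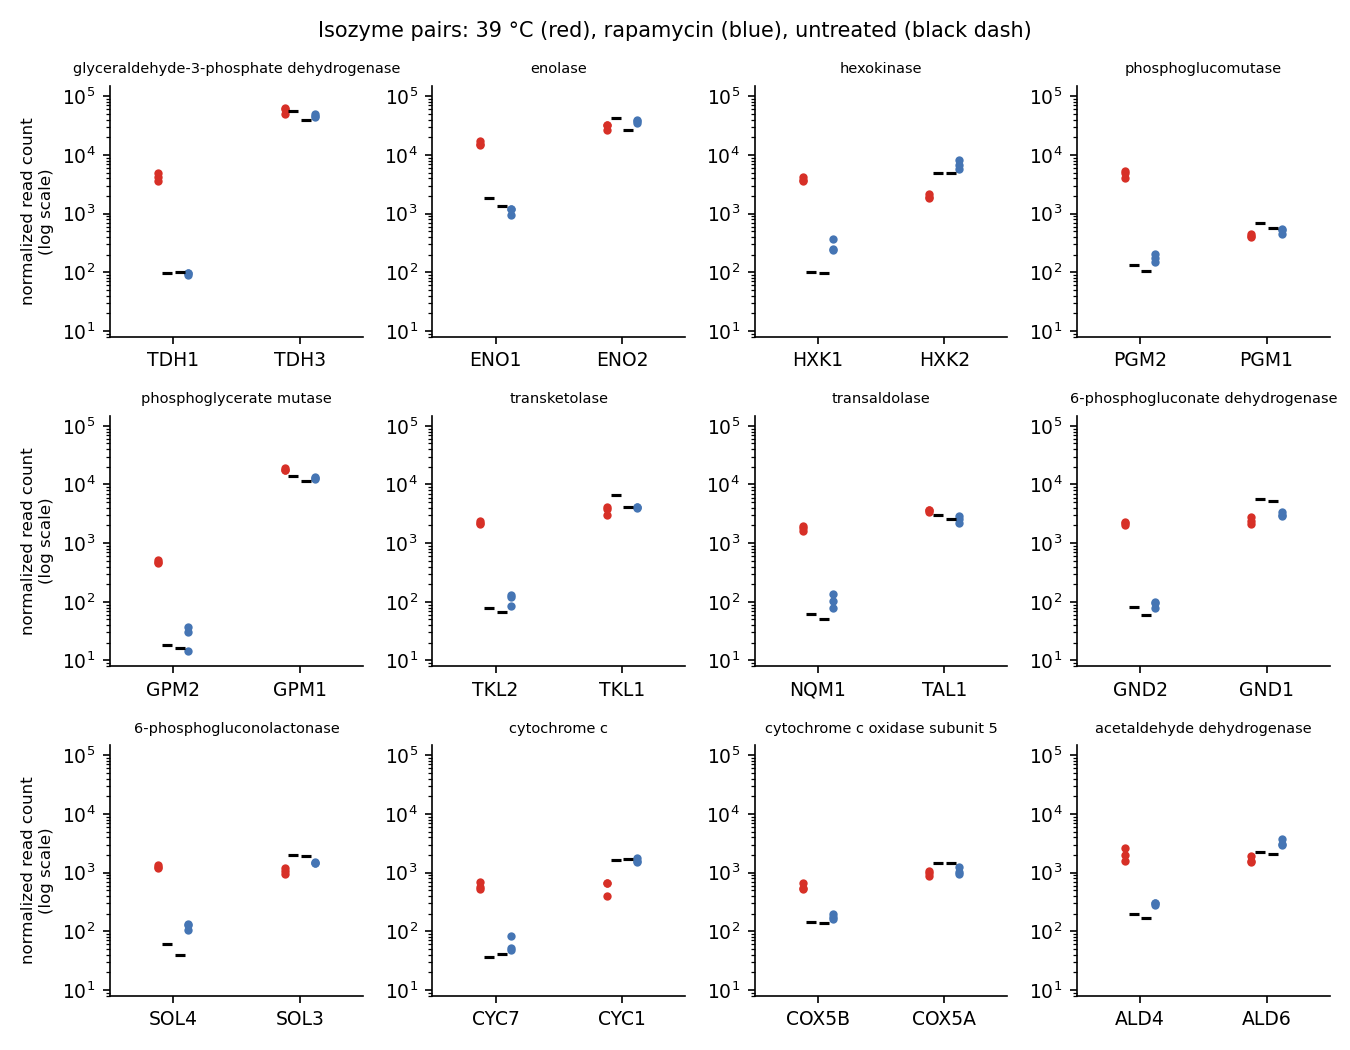
Normalized read count (log scale) in late heat (red), late rapamycin (blue) and both untreated libraries (black dashes) for 12 isozyme pairs, chosen after the values were seen. TDH1 lies at 3642 to 4847 in heat and 91.5 to 97.0 in rapamycin, while TDH3 lies at 44700 to 63491 in all 6 late libraries.

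Respiratory genes were higher in heat. Of 15 genes of the TCA cycle 14 were called higher and 0 lower (median 1.00), against 32.9% and 37.9% of all genes. Of 36 genes of the respiratory chain and ATP synthase 24 were called higher and 1 lower (median 0.46, and 0.70 under equal totals). SDH2 stood at 1360, 1403 and 1336 in heat and 354, 316 and 350 in rapamycin (2.01 ± 0.08, 4.01-fold, adjusted p 4.96e-08). The rapamycin values of SDH2 were like its untreated 379 and 338. CYC1, the main cytochrome c, was the respiratory gene called higher in rapamycin (−1.53 ± 0.16, adjusted p 1.69e-05), while CYC7, its minor isoform, was higher in heat (3.27 ± 0.12, adjusted p 2.48e-08). Mitochondrial ribosomal proteins had no common direction. Of 66 genes 15 were called higher in heat and 14 in rapamycin, both below the shares of all genes (32.9% and 37.9%). The 95% intervals of 64 lay within 1 of 0, and the median of −0.02 changed sign with scaling (0.23 under equal totals).

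Ribosome genes were lower in adapted heat. All 86 ribosome biogenesis genes were called higher in rapamycin, 73 of them by at least 1 (median −1.49). Among 138 cytosolic ribosomal protein genes 135 were called higher in rapamycin and 1 in heat (median −1.41, and −0.93 under quantile normalization). Against 37.9% of all genes called in that direction, these shares were 86 of 86 and 135 of 138. Ribosomal protein genes took 8.21% to 10.1% of reads in late heat and 21.8% to 23.0% in late rapamycin. Biogenesis genes took 0.547% to 0.578% and 1.26% to 1.53%.

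NSR1 (YGR159C), a nucleolar protein of pre-rRNA processing, was at 151, 163 and 158 in heat and 1257, 1163 and 909 in rapamycin, against 4808 and 2989 untreated (−2.80 ± 0.11, 6.95-fold, adjusted p 3.19e-08). Late values of NSR1 were thus below the untreated ones in both courses, and far lower in heat. DBP2, an RNA helicase, was at 52.1, 81.2 and 89.5 against 696, 526 and 508 (−2.96 ± 0.20, adjusted p 7.81e-07). NOP56, a core protein of box C/D snoRNPs, differed by −2.28 ± 0.08 (adjusted p 1.44e-08). Of the ribosomal proteins, RPS31, a ubiquitin fusion, was at 6427, 6643 and 4956 in heat and 30305, 32849 and 29895 in rapamycin (−2.38 ± 0.14, adjusted p 2.94e-07). RPL15A differed by −2.29 ± 0.11 and RPL9A by −2.63 ± 0.12, each with a near-identical partner that makes its count uncertain. RPL13A, the usual anchor gene of this method, was at 239, 244 and 176 in heat and 586, 628 and 627 in rapamycin (−1.49 ± 0.11, adjusted p 1.8e-06), with a partner at 93.0% identity.

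Genes of the enzymes that transcribe ribosomal and transfer RNA were also higher in rapamycin. Of 24 genes of RNA polymerase I and III 22 were called higher in rapamycin and 0 in heat (median −0.94), against 37.9% and 32.9% of all genes. The largest differences were those of the polymerase I subunits RPA34 (−1.86 ± 0.09) and RPA49 (−1.84 ± 0.08). ZPR1, a zinc-finger protein needed to fold the translation elongation factor eEF1A, had the largest difference on the rapamycin side. It stood at 356, 422 and 420 in heat and 4355, 3693 and 3099 in rapamycin, against 1379 and 1105 untreated (−3.20 ± 0.13, 9.21-fold, adjusted p 3.31e-08). Late heat was below the untreated level of ZPR1 and late rapamycin above it.

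Proteasome genes were higher in rapamycin by a smaller margin. Of 36 genes 33 were called higher in rapamycin and 1 in heat (median −0.79), against 37.9% and 32.9% of all genes. Proteasome genes took 1.39% to 1.5% of reads in late rapamycin and 0.968% to 1.03% in late heat. PRE9, a subunit of the core particle, was at 899, 891 and 887 in heat and 2445, 2021 and 2089 in rapamycin (−1.29 ± 0.09, adjusted p 7.64e-07). RPN4, the transcription factor of proteasome genes, was at 769, 753 and 759 against 801, 688 and 691 and was not called (0.07, 95% interval −0.12 to 0.26), but was called under equal totals (0.32). PDR5, a drug efflux pump that shares regulators with these genes, was higher in heat (0.88 ± 0.09, adjusted p 1.63e-05, and 1.44 under quantile normalization).

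**Figure D5:**
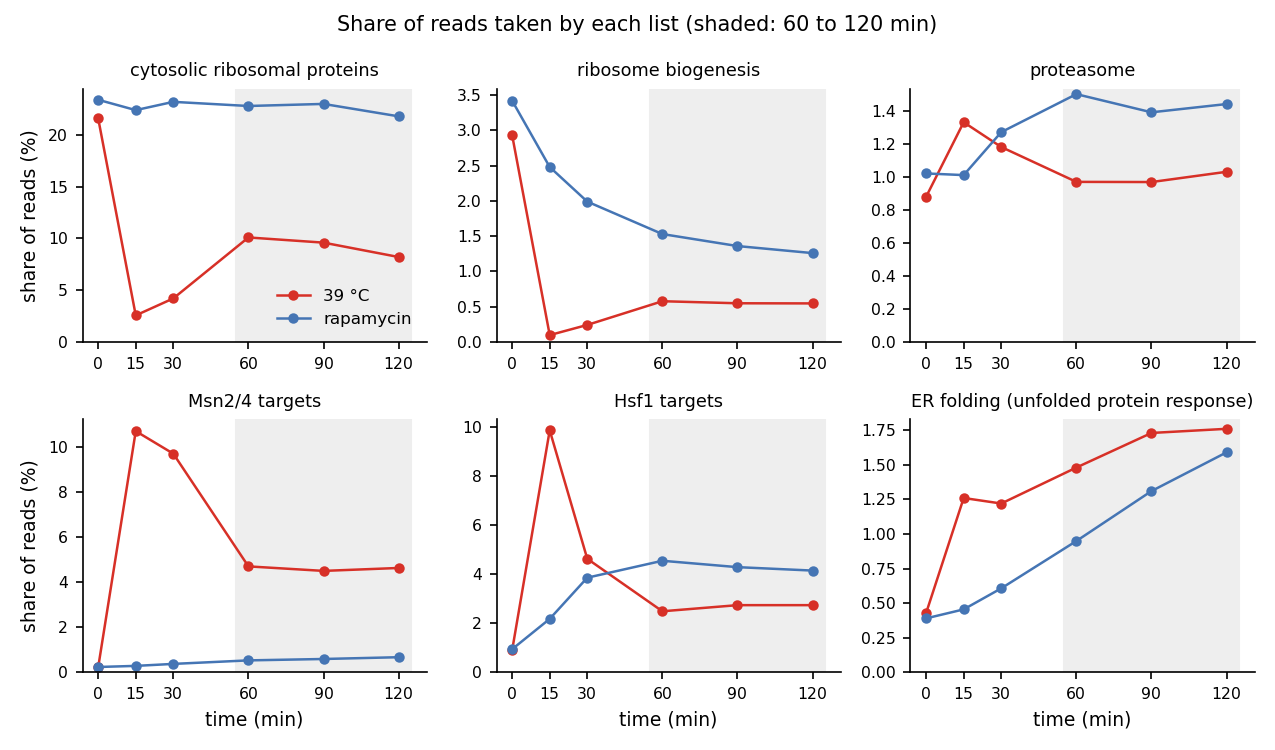
Share of reads (%) taken by 6 gene lists at 0, 15, 30, 60, 90 and 120 min at 39 °C (red) and in rapamycin (blue), 1 library per point, with the late times shaded. Ribosomal protein genes sit at 8.21% to 10.1% in late heat and 21.8% to 23.0% in late rapamycin, and the Hsf1 lines cross between 30 and 60 min.

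Genes of endoplasmic reticulum folding were partly higher in heat. Of 20 genes 10 were called higher in heat and 0 higher in rapamycin, against 32.9% and 37.9% of all genes. The median of 0.33 was 0.20 to 0.39 with 1 time left out (0.20 without the 60 min pair) and 0.57 under equal totals, and the median by time was 0.42, 0.18 and 0.08 at 60, 90 and 120 min. KAR2, the Hsp70 of the endoplasmic reticulum, was at 21017, 26204 and 25762 in heat and 19074, 24913 and 28963 in rapamycin. The ranges of KAR2 overlapped, with a mean difference of 0.01 (95% interval −0.34 to 0.37) whose sign changed with quantile normalization (−0.04). EUG1, a protein disulfide isomerase, was at 521, 570 and 604 in heat and at 143, 230 and 358 in rapamycin (1.31 ± 0.17, adjusted p 6.97e-05). MPD1, another isomerase, stood at 1206, 1289 and 1535 against 466, 862 and 1223 (0.76 ± 0.16, adjusted p 0.00204), or 0.45 without the 60 min pair.

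The change of the gap with time was tested as the change of the log2 difference per doubling of time, with 1 residual degree of freedom. Of 4937 genes 527 were called (10.7%), 217 above 0 (4.4%) and 310 below 0 (6.28%). Of the called trends 41.2% were above 0 as deposited and 53.1% under equal totals. This count was 73 with DESeq2 and 13 without the filter on low values, so these trends depend on the test far more than the level differences do. Of the 20 folding genes of the endoplasmic reticulum, 10 had a trend called below 0, as did 17 of 38 Msn2/4 targets, whose median difference was 3.48, 2.85 and 2.73 at the 3 times. Of 23 Hsf1 targets 5 had a trend called above 0 and 0 below, with a median of −0.86, −0.71 and −0.54. These were BTN2 (0.52), FES1 (0.48), STI1 (0.50), CPR6 (0.81) and MBF1 (0.69), so the gap narrowed for BTN2, FES1 and MBF1. The trends of SSA4 (0.21 ± 0.19 SE, adjusted p 0.539) and SIS1 (0.29 ± 0.15, adjusted p 0.225) were not called, which does not show that their gaps were constant.

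HXT1 and HXT3 closed most of their gap. HXT1 was at 145, 456 and 993 in heat and 1351, 2171 and 2199 in rapamycin, a trend of 2.03, and HXT3 was at 240, 649 and 970 against 1160, 1224 and 1388, a trend of 1.79. HO, the mating-type switching endonuclease, was at 26.1, 23.6 and 34.2 in heat and 176, 114 and 34.5 in rapamycin, so the courses differed by −2.71 at 60 min and −0.02 at 120 min. ATG17, a scaffold of autophagosome formation, was at 788, 831 and 1035 in heat and 171, 344 and 693 in rapamycin, and its gap went from 2.20 to 0.58. Histone genes were lower in heat, with 9 of 10 called higher in rapamycin (median −1.73), against 37.9% of all genes. Their trend was called above 0 for 5, against 4.4% of all genes. HTB2, a histone H2B, was at 268, 326 and 418 against 1824, 1652 and 1371 (−2.27 ± 0.16, adjusted p 1.01e-06). CLB2, the mitotic cyclin, was at 37.8, 62.7 and 108 in heat and 217, 153 and 141 in rapamycin, with a trend of 2.11. Without the 60 min pair the level differences of HXT3 and CLB2 were −0.71 and −0.83, both still called.

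Amino acid and nucleotide synthesis leaned to rapamycin. Shares over all genes were 37.9% called higher in rapamycin and 32.9% called higher in heat. Of 42 Gcn4 targets 30 were called higher in rapamycin and 3 in heat (median −0.56, and −0.31 under equal totals), and ASN1, an asparagine synthetase, was at 1107, 839 and 791 against 4001, 3424 and 3066 (−1.94 ± 0.08, adjusted p 5.35e-08). Of 27 genes of purine and pyrimidine synthesis 19 were called higher in rapamycin and 5 in heat (median −0.60, and −0.35 under equal totals). URA7, the major CTP synthase, differed by −2.55 ± 0.14 and its minor form URA8 by 1.04 ± 0.09 (adjusted p 2.74e-07 and 2.81e-06). Nitrogen catabolite genes leaned to heat, with 16 of 24 tested called higher there and 2 in rapamycin (median 0.48). GAP1, the general amino acid permease, was at 2925, 1435 and 999 in heat and 784, 504 and 343 in rapamycin (1.65 ± 0.10, adjusted p 3.3e-07).

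Ergosterol and iron genes had no common direction. Of 23 ergosterol genes 7 were called higher in heat and 13 in rapamycin, against 32.9% and 37.9% of all genes. Their median of −0.30 was 0.00 under quantile normalization. Of 29 iron regulon genes 11 were called higher in heat and 10 in rapamycin, near the shares of all genes. Their median of −0.15 was 0.10 under equal totals. FET3, the multicopper oxidase of iron uptake, was at 414, 435 and 478 against 3076, 2725 and 2407 (−2.62 ± 0.11, adjusted p 4.01e-08), while FRE2, a ferric reductase, was higher in heat (1.59 ± 0.12, adjusted p 1.39e-06). CIT2, the peroxisomal citrate synthase, was at 470, 552 and 615 against 2003, 1623 and 1600 (−1.67 ± 0.12, adjusted p 1.47e-06). ACT1, actin, was not called (0.08, 95% interval −0.20 to 0.37) but was under equal totals (0.33) and quantile normalization (0.77), and TOR1 was not called (0.05) but was under equal totals (0.30).

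Most cell wall integrity genes that were called were higher in heat. Of 29 tested 18 were called higher in heat and 2 in rapamycin, against 32.9% and 37.9% of all genes (median 0.38, and 0.62 under equal totals). PIR3, a cross-linked wall protein, was at 4779, 3259 and 2358 in heat and 112, 75.7 and 63.0 in rapamycin (5.34 ± 0.09, adjusted p 1.48e-10). PST1, a wall protein raised by wall damage, differed by 3.42 ± 0.09 (adjusted p 2.26e-09). GAS1, a glucan-remodelling enzyme, was at 3543, 3551 and 2756 against 10095, 10799 and 10693 (−1.69 ± 0.12, adjusted p 9.31e-07), and its difference was −0.93 under quantile normalization. SCW10, a glucanase-like wall protein, and DSE2, a daughter-cell separation protein, were among the 10 largest differences on the rapamycin side (−3.0 ± 0.10 and −2.71 ± 0.18, adjusted p 9.31e-09 and 7.82e-07).

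The upstream sequences of these genes were read in the 500 bases before the start codon of 4911 genes, on both strands. AGGGG was present before 34% of all genes, 35 of 38 Msn2/4 targets, 59% of the 576 genes higher in heat by at least 1 and 25% of the 559 higher in rapamycin by as much. The heat shock element was present before 1.51% of all genes, 13 of 23 Hsf1 targets, 1.39% of the heat-higher genes and 3.94% of the rapamycin-higher genes. GATGAG stood before 28.3% of all genes, 93% of ribosome biogenesis genes and 47% of the rapamycin-higher genes. AAAAATTTT, the RRPE element, stood before 10.6%, 67.4% and 31.3% of the same sets. CCAATNA stood before 25% of all genes, 13 of 15 TCA cycle genes and 30 of 36 respiratory genes. Of the Hsf1 targets, the 9 with AGGGG had a median difference of −0.62 and the 14 without it −0.84. A match describes the letters of the window and is not evidence of binding.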

How the data were processed

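PolyA RNA from 12 yeast libraries was sequenced after phenol-chloroform extraction and NEBNext Ultra library preparation, per the labels' protocols. Bowtie, HTSeq and the build sacCer3 are named in the submitters' processing notes, with no version or role. The authors deposited 1 table of 5045 genes whose values are a signal, normalized gene read counts. The normalization method and strand use are not given in the sources used here. In each library all values (100.0%) were whole multiples of 1 step within 0.05 read, so whole reads were recovered, 2991418 to 4379304 per library. All 12 columns were used, and 5023 of 5045 names were found in R64 (RefSeq), the assembly of sacCer3. Overlapping or near-identical genes can share reads.

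Values were compared as log2(value + 1), so differences of low genes are understated and a fold is that of value + 1. Genes averaging 10 or more across the 12 libraries were fitted with limma 3.58.1 (R 4.3.3, eBayes with a mean-variance trend) on the 6 late libraries with time as a factor (2 residual and 7.55 prior degrees of freedom). A second fit added course by log2(time). Its prior degrees of freedom were infinite, so all genes of like level share 1 variance, and its p-values rest on that. Adjusted p-values are Benjamini-Hochberg over 4937 genes, intervals are 95%, and SE is limma's. Pooled ratios have exact binomial 95% intervals, for counting error only. The p-values describe these libraries, since no time point was replicated. edgeR 4.0.16 and DESeq2 1.42.0 were run on recovered reads as alternatives, beside other pseudocounts, filters and scalings, a fit without the time block and leaving out each time. The models were tested on simulated data.

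The members and the gene lists were chosen with earlier results of these data known. Genes named were the 10 largest called differences each way with a late mean of at least 50 and 1 sign at all times, up to 3 per list and direction, a set of stress and strain genes, all Hsf1 targets and the 5 largest trends each way, of which 1 is not reported here. The isozyme pairs, SSA3, GAC1 and HOR7 were named outside this rule, after their values were seen, and NOP7 only for its promoter. Near copies are coding sequences at least 85% identical over at least 50% of length (blastn 2.17.0). The time points pair the courses by design; same-time deviations from the course means correlated at 0.20, 0.03 and 0.15 across genes at 60, 90 and 120 min.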

Additional observations from a re-analysis of the deposited data

Results flagged for a closer look

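The difference between the courses itself was called as changing between 60 and 120 min, by the test of course against log2(time), for the 9 genes named for their trend and for 44 of the other named genes. Values are changes of the log2 difference (heat minus rapamycin) per doubling of time. These calls depend on the test: of these 53 trends, 50 lost their call without the filter on low values, 26 of the 40 with an adjusted p in DESeq2 lost it there, and 19 lost it when the mean-variance trend was dropped, while none lost it in edgeR or changed sign under any alternative run. Of the 9, the courses differed for HO (2.57), MF(ALPHA)2 (2.36), CLB2 (2.11) and CHA1 (2.08), and in the other direction for DAK2 (−2.36), LCL1 (−1.78), ATG17 (−1.62), COS111 (−1.62) and IRC4 (−1.50). CHA1, a serine and threonine deaminase, was at 264, 315 and 325 in heat and 1395, 617 and 412 in rapamycin. DAK2, a dihydroxyacetone kinase, was at 242, 189 and 113 in heat and 17.2, 38.8 and 42.3 in rapamycin, so its gap shrank from both sides.

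Among the genes with the largest level differences, the gap shrank for GPH1 (−0.92), PGM2 (−0.81), ZPR1 (0.73), DBP2 (1.26), NSR1 (0.52), DSE2 (1.06), FET3 (0.55) and URA7 (0.90). It widened for HXT2 (−0.57) and RPL9A (−0.56), both higher in rapamycin. Among the other named genes the trend was called for BTN2 (0.52), CIT2 (0.72), FES1 (0.48), STI1 (0.50), CPR6 (0.81) and MBF1 (0.69). Of the genes named from the lists and higher in heat, the gap shrank for TSL1 (−0.73), CWP1 (−0.98), EUG1 (−1.10), MPD1 (−1.06), SDH4 (−0.54), ENO1 (−0.64), HXK1 (−0.62), ADE17 (−0.78), ERG28 (−0.73), GLN1 (−0.57), MRP8 (−0.54) and RPS14B (−0.48), and it widened for STE2 (0.84). Of those higher in rapamycin, it shrank for HXT1 (2.03), HXT3 (1.79), CDC5 (1.11), HTB2 (1.03), HTA2 (0.89), HHF1 (0.98), CYC1 (1.01), MF(ALPHA)1 (0.71), ILV2 (0.64), ILV3 (0.56), ISU2 (0.60), DAL7 (0.53), MVD1 (0.50) and ERG13 (0.46), and it widened for SAM1 (−0.75).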

How the results depend on the processing

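The count of genes called different in level was 3495, and 3361 without the filter on low values, 2992 with DESeq2 and 3507 with edgeR, 3041 in a fit of all 12 libraries and 2832 to 3488 when 1 time was left out. Requiring a difference of at least 1 left 1142. The count of called trends, 527, was 73 with DESeq2, 345 with time in minutes and 13 without the filter; leaving out a time was not run for trends, because no residual degree of freedom is left.

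Without the replicate block, that is without pairing by time, 3408 level differences and 376 trends were called, against 3495 and 527.

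Of the named genes, 147 of 154 kept their direction under every alternative, and 124 kept both direction and side of the threshold. Of the 53 named trends none changed sign, and 3 kept their call under every alternative. HSP42 (−0.06) turned to 0.01 under TMM scaling and edgeR, 0.19 under equal totals and 0.38 under quantile normalization. Under equal totals and quantile normalization AHA1 turned to 0.13 and 0.36, HCH1 to 0.08 and 0.26, and STI1 to 0.02 and 0.32. Quantile normalization turned KAR2 to −0.04 and UBI4 to 0.37. Leaving out 1 time gave −0.05 to 0.11 for KAR2 and −0.06 to 0.34 for CPR6. List medians kept their sign for 24 of 27 lists. That of ergosterol synthesis was 0.00 under quantile normalization, and that of the iron regulon 0.10 under equal totals. That of mitochondrial ribosomal proteins was 0.03 with DESeq2, 0.05 under TMM scaling and edgeR, 0.23 under equal totals and −0.03 to 0.00 with 1 time left out. The cause was not tested. Depth limits genes of few reads, such as LSO1, with 78 and 16 late reads in heat and rapamycin.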

Other observations

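Genes that differed by at least 1 differed in other features as well. Those higher in heat had a median untreated normalized count of 104.9 and those higher in rapamycin one of 1561.3, against 329.1 for all tested genes. Genes within 25 kb of a chromosome end made up 6.8% of the heat-higher genes, 2.3% of the rapamycin-higher genes and 3.1% of all. Genes with an intron made up 16.1% of the rapamycin-higher genes and 4.8% of all. Of those 90 genes 80 encode cytosolic ribosomal proteins, and without ribosomal protein genes the shares were 2.29% and 3.04%.

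Pheromone genes differed too. MF(ALPHA)1, the main α-factor gene, was at 360, 284 and 277 in heat and 2569, 1804 and 1182 in rapamycin (−2.53 ± 0.13, adjusted p 1.53e-07), against 7452 and 6441 untreated. STE2, the α-factor receptor of a cells, was at 257, 276 and 277 in heat and 119, 76.6 and 72.5 in rapamycin (1.62 ± 0.16, adjusted p 1e-05), while MFA1 and MFA2 had at most 14 reads in any library. PCL1, a G1 cyclin, was at 85.8, 105 and 102 in heat and 313, 379 and 441 in rapamycin, and CLN3, which acts earlier in G1, at 519, 459 and 377 against 271, 220 and 215.

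Of 24 genes of methionine and sulfur assimilation 11 were called higher in heat and 5 in rapamycin (median 0.17), against 32.9% and 37.9% of all genes. The S-adenosylmethionine synthetases went apart, with SAM2 at 1.21 ± 0.09 and SAM1 at −1.20 ± 0.13. Of 8 reference genes 5 were called higher in rapamycin and 1 in heat (median −0.32, and −0.07 under equal totals or quantile normalization), and TAF10 differed by −1.32 ± 0.09.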
